A study of Homo sapiens with 5 samples.

Results

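The genes described here run mitosis: the kinase CDK1 with its cyclins, the Polo and Aurora kinases, the spindle checkpoint, the kinetochore, the ubiquitin ligase APC/C and the proteins of chromatid separation, the spindle and cytokinesis. They were taken by symbol from a fixed list of 47 genes, which leaves out the kinesin family apart from CENPE. The count table, which had 13638 rows, held 43 of them. SGO1 stands there under its older symbol SGOL1, and AURKA, MAD1L1, SPC25 and RACGAP1 were not analysed here. UBE2C, with 2, 4 and 2 counts in the knockout libraries and 3 and 1 counts in the wild-type libraries, did not pass the filter on low counts, so 42 genes were tested among 11205. The measurements are counts of ribosome-protected mRNA fragments (footprints) in 5 libraries from HAP1, a near-haploid human cell line that descends from a chronic myeloid leukaemia. The ZCCHC4 knockout group held 3 libraries and the wild-type group held 2. ZCCHC4 is named in the series as the enzyme that places N6-methyladenosine on 28S ribosomal RNA, and the labels give no treatment, clone or way of making the knockout, nor whether libraries of a genotype came from separate cultures. P-values thus reflect only how far these libraries spread, and that spread may be technical.

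Mitosis is entered when CDK1 bound to cyclin B becomes active. The spindle checkpoint then holds the APC/C in check until every kinetochore is attached to microtubules, after which the APC/C marks securin and cyclin B for destruction, separase cuts cohesin and the cell divides. Many of these genes are transcribed in a wave late in the cell cycle, from promoters that carry a CHR element (cell cycle genes homology region, read by the MuvB complexes) and CCAAT boxes (read by NF-Y). A footprint count follows both the amount of an mRNA and its occupancy by ribosomes. In these bulk samples, a larger share of cells in mitosis and more footprints per cell cannot be told apart.

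ZCCHC4 itself was at 3.85, 3.41 and 4.98 CPM in the knockout libraries, against 16.0 and 13.3 CPM in the wild-type libraries, a fall of 3.54-fold (log2 fold change -1.82 ± 0.20, SE; edgeR adjusted p = 7.27e-05); CPM are depth-scaled counts after TMM scaling, a correction for composition between libraries. Library totals were between 16940732 and 31557573 counts in the knockout and 4887380 and 5302160 in wild type, so depth and genotype moved together. At these depths a count of 0 allows up to 3 counts, which is at most 0.186 CPM in a knockout library and 0.560 CPM in a wild-type library. Counts of both wild-type libraries were close to each other, with a chi-square of 1.14 per degree of freedom (p = 8.02e-22). It was 2.97 for knockout replicates 1 and 3 and at least 24.6 for pairs with knockout replicate 2, which stood apart. Chi-square on raw counts grows with depth, so 1.14 and 2.97 do not rank how alike these 2 pairs are. Of 6 blood cell markers PTPRC, SPI1 and GATA1 were not analysed here. CD34 had 0 counts in each knockout library and 2 in each wild-type library, CD33 had 1 in each knockout library and 0 in each wild-type library, and KIT was at 1.64 ± 0.256 CPM in the knockout and 11.3 ± 1.14 CPM in wild type (SD, n = 3 and n = 2). Vimentin (VIM), abundant in many attached cells, was at 511 ± 18.8 CPM in the knockout and 132 ± 12.2 CPM in wild type; the part of such differences between the lines in the results below was not tested.

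Most of the mitosis genes that changed were higher in the knockout, and most changes were under 2-fold. A gene was called where edgeR's quasi-likelihood test gave a Benjamini-Hochberg adjusted p under 0.05. Of the 42 tested genes, 19 (45.2%) rose, 9 (21.4%) fell and 14 were not called. Over all 11205 genes tested, 30.2% rose and 29.8% fell, 60% in all. The mitosis genes had a median wild-type level of 190 CPM, against 23.8 CPM for all genes. The shares compared here are not matched for level. The median log2 fold change, knockout over wild type, was 0.25 (1.19-fold) for the mitosis genes and 0.015 for all genes. A change of at least 2-fold was a rise in 3 mitosis genes (ANLN, SPC24 and MAD2L1) and a fall in none, where 10% of all genes rose and 13.1% fell by at least as much. All 3 knockout libraries lay above both wild-type libraries in 25 of the 42 genes and below them in 9, against 38.5% and 37.9% of all genes. With library totals in place of TMM factors 12 mitosis genes rose and 11 fell (21.3% and 40.7% of all genes), their median was 0.026, and the median of all genes was -0.20. Leaving out a knockout library gave between 18 rises (without replicate 3) and 27 (without replicate 2), where 27.4% and 37.3% of all genes rose. Falls numbered 8 without replicate 1 or 3 and 11 without replicate 2, where 28.5%, 27.3% and 35.9% of all genes fell. Without replicate 2 the knockout group holds only replicates 1 and 3, which were close, so adjusted p values there rest on little spread. Without wild-type replicate 1 or 2, 1 library was left in that group and fewer genes were called. The median of the mitosis genes was then 0.26 in either case. Summing near-identical libraries (knockout replicates 1 and 3, and the wild-type pair), an alternative chosen after seeing the data, left 1 wild-type library. Fewer genes were called in that fit, mitosis genes and all genes alike. The median was 0.26 for the mitosis genes and 0.016 for all genes. Residuals from splines of coding length, GC content and level had a median of 0.10 for the mitosis genes and -0.020 for all genes.

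**Figure D1:**
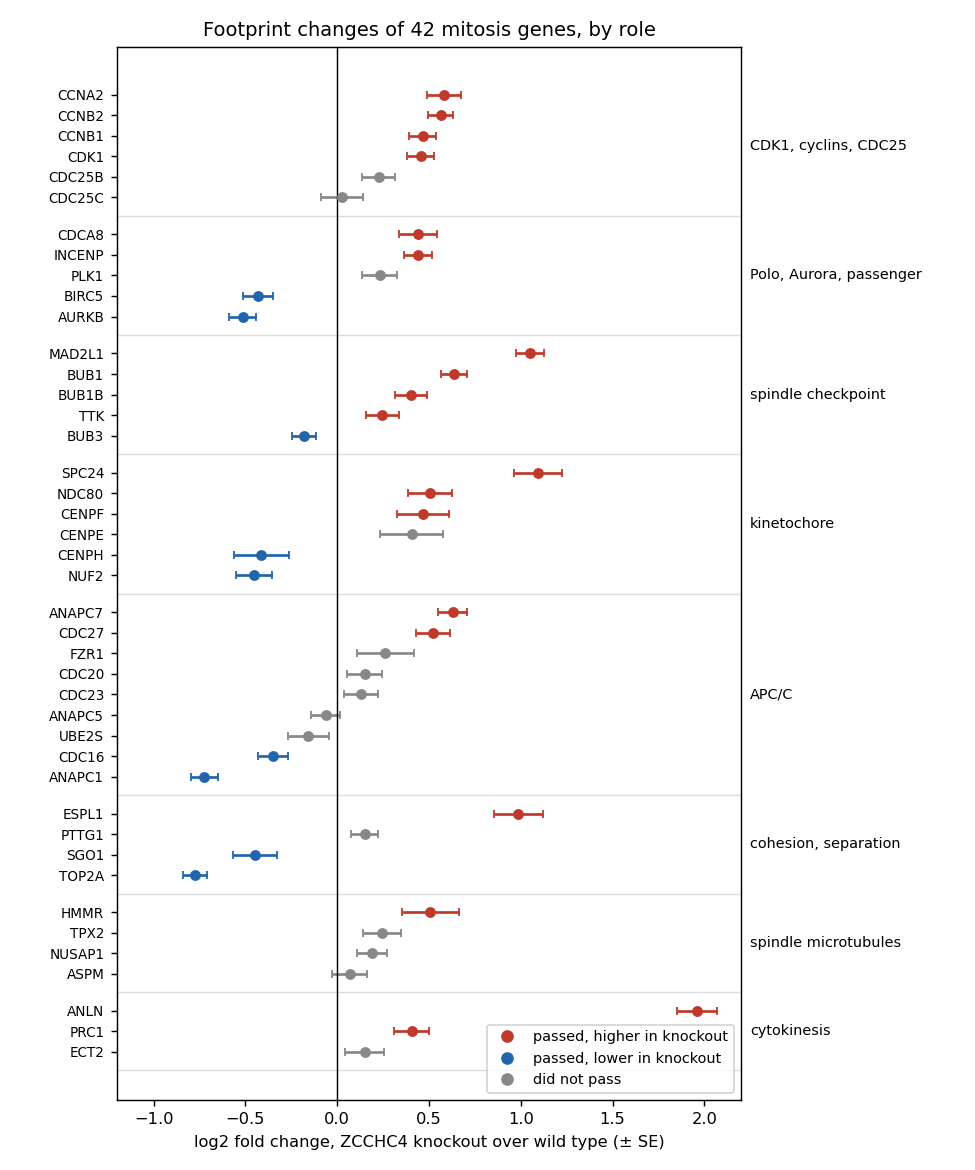
Log2 fold change of footprints, knockout over wild type, for 42 mitosis genes grouped by role. Points are edgeR estimates from 3 knockout and 2 wild-type libraries and bars are approximate SE; red marks the 19 genes that passed and were higher, blue the 9 that passed and were lower, and grey the 14 that did not pass. ANLN stands furthest right at 1.96, and every role group except the first, the spindle microtubule and the cytokinesis groups holds both red and blue points.

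The promoters of these genes share motifs that did not enter their choice. RefSeq windows (GRCh38.p14, from 250 bases before to 50 bases after the annotated start, 300 bases each) were at hand for 39 of the 47 genes. A CHR match was taken as TTTGAA on either strand or TTCGAA, which reads the same on both strands, and a CCAAT box as CCAAT on either strand. In these genes a CHR match and a CCAAT box shared a letter only in CDCA8, and it was 1 letter. Of the 39 genes, 27 (69.2%) held a CHR match and 30 (76.9%) a CCAAT box in at least 1 window, and 20 (51.3%) held both. Among 8740 tested genes with a window the shares were 15%, 43.1% and 8.19%, and for all 27305 genes with windows they were 19.5%, 39.7% and 9.02%. A CHR match was present in 14 of 18 genes that rose, 4 of 6 that fell and 8 of 13 that did not pass. Matches are a description of these windows, not shown binding sites.

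Windows of 5 genes are shown because they span the range of change: ANLN, the largest rise (plus strand, chr7:36389612-36389911), CCNB2, a rise (plus strand, chr15:59104896-59105195), PLK1, which did not pass (plus strand, chr16:23678639-23678938), NUF2, a fall (plus strand, chr1:163321704-163322003), and TOP2A, the largest fall (minus strand, chr17:40417847-40418146). Each is written 5′ to 3′ along the gene's strand, and capitals mark CHR and CCAAT matches on either strand.
ANLN: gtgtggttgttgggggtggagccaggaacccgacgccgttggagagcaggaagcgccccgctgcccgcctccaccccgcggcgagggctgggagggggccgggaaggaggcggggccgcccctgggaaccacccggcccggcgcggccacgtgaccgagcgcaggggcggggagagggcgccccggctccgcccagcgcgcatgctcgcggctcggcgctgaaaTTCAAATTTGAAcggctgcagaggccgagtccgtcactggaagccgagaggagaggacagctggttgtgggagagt
CCNB2: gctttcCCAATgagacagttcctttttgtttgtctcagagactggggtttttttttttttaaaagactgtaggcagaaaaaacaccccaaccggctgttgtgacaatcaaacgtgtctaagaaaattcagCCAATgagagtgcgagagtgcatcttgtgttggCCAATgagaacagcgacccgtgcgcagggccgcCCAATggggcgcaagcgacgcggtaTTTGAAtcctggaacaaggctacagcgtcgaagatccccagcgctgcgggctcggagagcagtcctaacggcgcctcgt
PLK1: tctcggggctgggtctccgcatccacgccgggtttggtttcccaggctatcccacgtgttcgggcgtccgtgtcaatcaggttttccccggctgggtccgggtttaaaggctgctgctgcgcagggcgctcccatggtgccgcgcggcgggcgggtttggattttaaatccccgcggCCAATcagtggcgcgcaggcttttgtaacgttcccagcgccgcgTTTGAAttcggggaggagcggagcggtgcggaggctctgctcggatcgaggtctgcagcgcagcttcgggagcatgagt
NUF2: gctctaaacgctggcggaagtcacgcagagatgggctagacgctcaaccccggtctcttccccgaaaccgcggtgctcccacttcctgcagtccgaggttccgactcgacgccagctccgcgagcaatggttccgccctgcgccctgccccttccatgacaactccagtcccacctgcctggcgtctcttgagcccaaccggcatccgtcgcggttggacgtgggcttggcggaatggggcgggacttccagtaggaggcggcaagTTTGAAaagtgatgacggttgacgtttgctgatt
TOP2A: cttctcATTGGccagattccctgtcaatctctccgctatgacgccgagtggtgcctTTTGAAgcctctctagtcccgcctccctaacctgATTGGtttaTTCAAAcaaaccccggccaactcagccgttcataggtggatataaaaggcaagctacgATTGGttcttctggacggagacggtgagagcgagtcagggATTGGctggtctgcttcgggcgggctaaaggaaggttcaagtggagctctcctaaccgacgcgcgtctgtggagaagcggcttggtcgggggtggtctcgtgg
In both CCNB2, which rose, and PLK1, which did not pass, a CHR match starts 29 bases before the annotated start. CCNB2 has 4 CCAAT boxes upstream of it, the nearest 54 bases before the start, and PLK1 has 1, at 73 bases before the start. The ANLN window holds a pair of adjoining CHR matches on opposite strands, 26 and 20 bases before the start, and no CCAAT box. TOP2A, which fell, has 4 CCAAT boxes, as CCNB2 does, and its CHR matches lie further upstream, 194 and 151 bases before the start. NUF2 has a single CHR match, which begins 16 bases past the annotated start, and no CCAAT box.

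**Figure D2:**
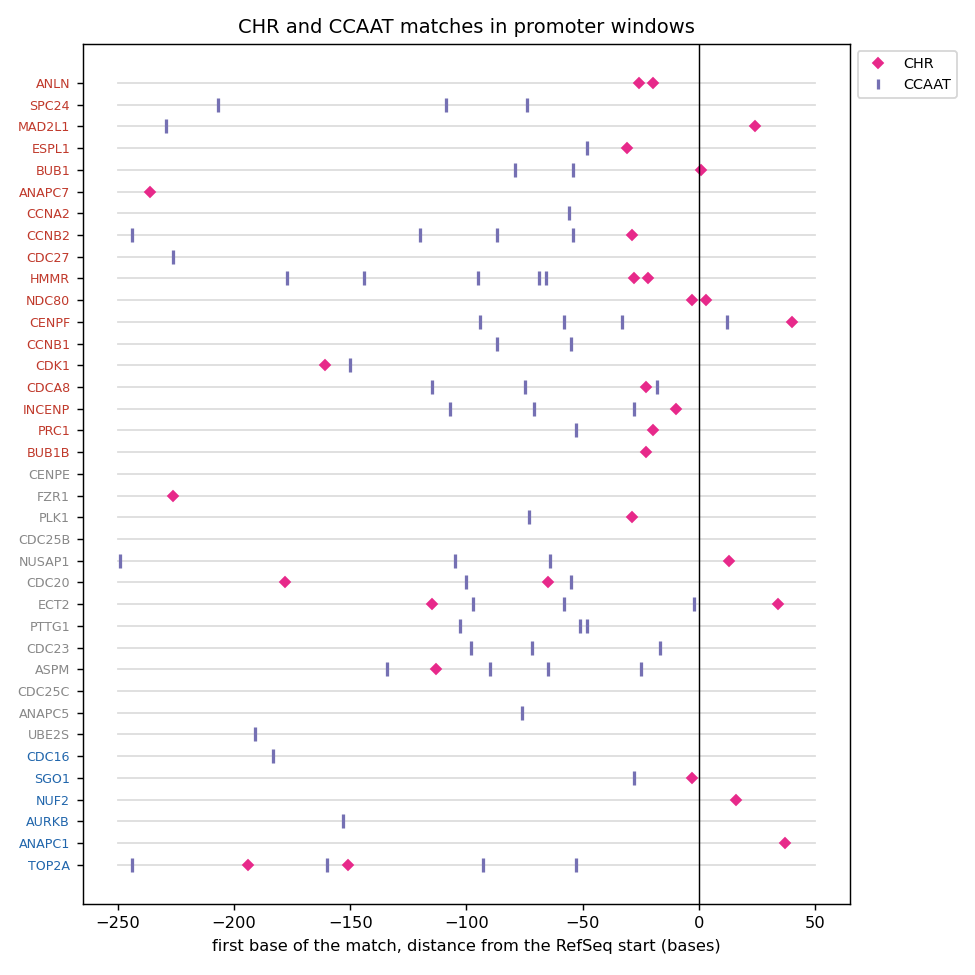
Positions of CHR matches (pink diamonds) and CCAAT boxes (purple ticks) in the first RefSeq window of each tested mitosis gene that has one, as the distance in bases from the annotated start. Genes run from the largest rise at the top, with red names for those that passed and were higher, grey for those that did not pass and blue for those that were lower. CHR matches occur in all 3 colours, and several rows have none. Most rows with a match have one close to the start.

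CDK1 and its cyclins were higher in the knockout. CDK1 is the kinase that drives entry into mitosis, cyclins A2, B1 and B2 (CCNA2, CCNB1, CCNB2) activate it, and the phosphatases CDC25B and CDC25C remove the marks that hold it inactive. In this group of 6, 4 rose and none fell (30.2% and 29.8% of all genes); the median log2 fold change was 0.46. Cyclin B1 was at 957, 845 and 931 CPM in the knockout libraries, against 653 and 667 CPM in the wild-type libraries. It rose by 0.47 ± 0.07 on the log2 scale (SE; edgeR adjusted p = 0.000472). Cyclin B2 gave 376, 365 and 380.4 CPM in the knockout libraries, against 254 and 252 CPM in the wild-type libraries, a log2 fold change of 0.56 ± 0.07 (adjusted p = 0.000105). Both B cyclins thus had every knockout library above every wild-type library, with knockout replicate 2 the lowest of the 3 knockout libraries. For cyclin A2 the levels were 453, 369 and 421 CPM in the knockout libraries, against 280.1 and 274 CPM in the wild-type libraries, a rise of 0.58 ± 0.09 (adjusted p = 0.000581). CDK1 itself stood at 523, 458 and 505 CPM in the knockout libraries, against 362 and 361 CPM in the wild-type libraries, a rise of 0.45 ± 0.08 (adjusted p = 0.000786). CDC25B (0.23 ± 0.09, adjusted p = 0.0534) and CDC25C (0.026 ± 0.12, adjusted p = 0.856) did not pass, although CDC25B did without knockout replicate 2 (adjusted p = 0.00454). CDC25B also passed with no filter on low counts (adjusted p = 0.0324). In residuals from the splines of coding length, GC content and level, CDK1 was at -0.096 and CCNB1 at 0.064. CCNA2 was at 0.32 and CCNB2 at 0.27. CDK1 was no longer called with near-identical libraries summed (adjusted p = 0.0686).

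**Figure D3:**
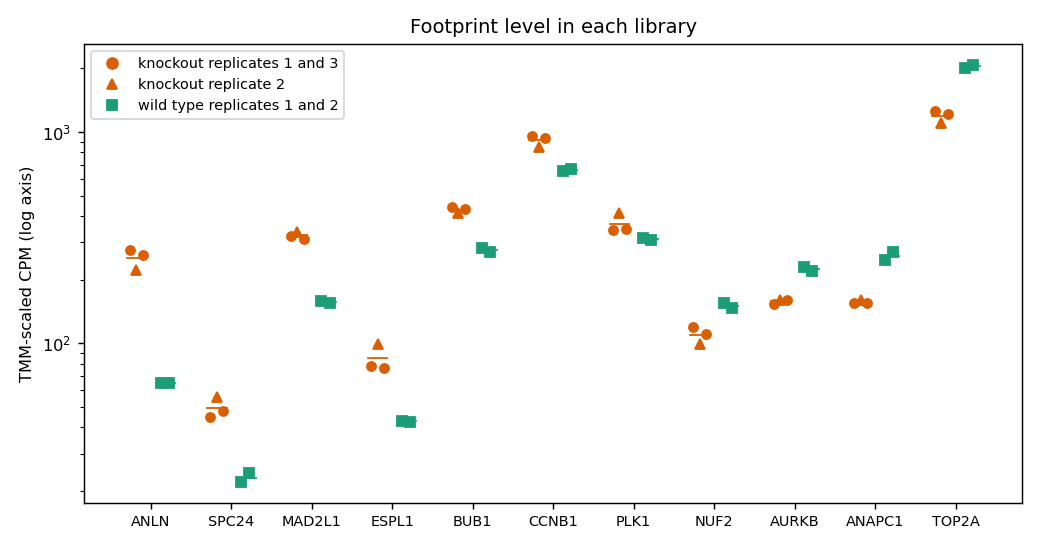
TMM-scaled CPM of 11 mitosis genes in each library, on a log axis. Orange symbols are the 3 knockout libraries (replicate 2 as a triangle), green squares the 2 wild-type libraries, and short lines the group means. ANLN shows the widest gap, TOP2A and ANAPC1 the widest gaps in the other direction, and the groups do not overlap in any gene drawn.

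The chromosomal passenger complex was split. It places the kinase Aurora B (AURKB) at centromeres and later at the central spindle; INCENP is its scaffold, and survivin (BIRC5) and borealin (CDCA8) target it to chromatin. INCENP and CDCA8 rose, whereas AURKB and BIRC5 fell (30.2% of all genes rose and 29.8% fell). Aurora B was at 154, 159.6 and 159.8 CPM in the knockout libraries, against 231 and 220.3 CPM in the wild-type libraries, a log2 fold change of -0.52 ± 0.07 (edgeR adjusted p = 0.000265). Survivin was at 133, 148 and 135 CPM in the knockout libraries, against 181 and 193 CPM in the wild-type libraries (-0.43 ± 0.08, adjusted p = 0.00167). In both genes each knockout library lay below each wild-type library. INCENP had 157, 163 and 166 CPM in the knockout libraries, against 118 and 121 CPM in the wild-type libraries (0.44 ± 0.08, adjusted p = 0.00103). CDCA8 had 109, 90.2 and 104 CPM in the knockout libraries, against 74.9 and 74.1 CPM in the wild-type libraries (0.44 ± 0.10, adjusted p = 0.00496). CDCA8 was no longer called without wild-type replicate 1 (adjusted p = 0.0531), without wild-type replicate 2 (0.0567) and with library totals (0.0745). With near-identical libraries summed AURKB alone of the 4 passed, and the adjusted p was 0.124 for BIRC5, 0.0927 for INCENP and 0.145 for CDCA8. PLK1, the Polo kinase of centrosomes, kinetochores and cytokinesis, stood at 343, 413 and 346 CPM in the knockout libraries, against 316 and 309 CPM in the wild-type libraries. Every knockout library lay above both wild-type libraries, replicate 2 the highest, and PLK1 did not pass (0.23 ± 0.09, adjusted p = 0.0570). It passed without knockout replicate 1 (adjusted p = 0.0357) or 2 (adjusted p = 0.00178), and with no filter on low counts (adjusted p = 0.0203). Without replicate 2 its log2 fold change was smaller, at 0.14, although the adjusted p was lower.

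Spindle checkpoint genes were mostly higher, with MAD2L1 rising 2.07-fold. Of 5 tested, 4 rose and 1 fell (30.2% and 29.8% of all genes). MAD2L1 encodes the protein that, bound to CDC20, blocks the APC/C. It stood at 322, 338 and 312 CPM in the knockout libraries, against 158 and 155 CPM in the wild-type libraries, a log2 fold change of 1.05 ± 0.07 (edgeR adjusted p = 5.42e-06). BUB1, a kinase that recruits checkpoint proteins to kinetochores, stood at 439, 414 and 433 CPM in the knockout libraries, against 283 and 269 CPM in the wild-type libraries (0.64 ± 0.07, adjusted p = 6.16e-05). BUB1B, which encodes BubR1, a part of the mitotic checkpoint complex, stood at 321, 275 and 310.0 CPM in the knockout libraries, against 219.9 and 237 CPM in the wild-type libraries (0.40 ± 0.09, adjusted p = 0.00359). In these 3 genes every knockout library lay above both wild-type libraries. BUB3, the partner that carries both to the kinetochore, was at 308, 303 and 307 CPM in the knockout libraries, against 343 and 351 CPM in the wild-type libraries, the smallest of the falls (-0.18 ± 0.06, adjusted p = 0.0354). TTK, the kinase MPS1 at the top of the checkpoint, was the smallest of the rises (0.25 ± 0.09, adjusted p = 0.0423). DESeq2 called neither BUB3 (adjusted p = 0.0916) nor TTK (0.0621). In edgeR TTK was lost with upper-quartile scaling (adjusted p = 0.0889) and a mean count of at least 50 (0.126). BUB3 was lost with no filter on low counts (0.126). BUB3 and TTK were each no longer called without wild-type replicate 1 (adjusted p = 0.158 and 0.211), wild-type replicate 2 (0.221 and 0.176), knockout replicate 1 (0.0709 and 0.145) and knockout replicate 3 (0.107 and 0.126). BUB1B was not called without wild-type replicate 1 (adjusted p = 0.0700), nor were BUB1B and TTK with library totals (adjusted p = 0.0837 and 0.800). Neither BUB1B, BUB3 nor TTK was called with near-identical libraries summed (adjusted p = 0.137, 0.507 and 0.448).

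Kinetochore genes moved in both directions, with 3 rises and 2 falls among 6 tested (30.2% and 29.8% of all genes). Both directions occurred within the NDC80 complex as well. That complex, the main microtubule coupler of the outer kinetochore, pairs NDC80 with NUF2 and carries SPC24 at its inner end. SPC24 rose 2.13-fold, at 44.9, 55.5 and 48.0 CPM in the knockout libraries, against 22.1 and 24.3 CPM in the wild-type libraries (1.09 ± 0.13, edgeR adjusted p = 0.000111). NDC80 stood at 159.5, 124 and 156 CPM in the knockout libraries, against 104 and 102 CPM in the wild-type libraries (0.51 ± 0.12, adjusted p = 0.00513). NUF2 went the other way, at 119.8, 98.8 and 110.4 CPM in the knockout libraries, against 155 and 146 CPM in the wild-type libraries (-0.45 ± 0.10, adjusted p = 0.00308). CENPF, a large protein of the corona that binds microtubules, was at 877, 627 and 921 CPM in the knockout libraries, against 579 and 590.0 CPM in the wild-type libraries (0.47 ± 0.14, adjusted p = 0.0188). Knockout replicate 2 lay far below the other 2 knockout libraries in CENPF, though still above wild type. CENPH, a subunit of the inner kinetochore, was at 82.1, 57.7 and 82.3 CPM in the knockout libraries, against 97.3 and 101 CPM in the wild-type libraries (-0.41 ± 0.15, adjusted p = 0.0383). The kinesin CENPE, which moves chromosomes to the spindle equator, was at 362, 237 and 376 CPM in the knockout libraries, against 246 and 245 CPM in the wild-type libraries. Knockout replicates 1 and 3 lay above wild type and replicate 2 below it, and CENPE did not pass (0.41 ± 0.17, adjusted p = 0.0687). Without that replicate the edgeR adjusted p was 1.93e-21. That value rests on 2 close libraries in each group and reflects little beyond the spread within those pairs. With all libraries CENPE passed in DESeq2 (adjusted p = 0.0214) and in edgeR with no filter on low counts (0.0211). NDC80, CENPF and CENPH were no longer called without wild-type replicate 1 (adjusted p = 0.0530, 0.128 and 0.143) or 2 (0.0593, 0.111 and 0.184), NUF2 without wild-type replicate 1 (0.0514), and NDC80 and CENPF with library totals (0.0509 and 0.144). With near-identical libraries summed SPC24 alone kept its call, and the adjusted p was 0.0921 for NDC80, 0.0597 for NUF2, 0.0866 for CENPF and 0.0667 for CENPH.

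APC/C genes showed no common direction. Among 9 tested there were 2 rises and 2 falls (30.2% and 29.8% of all genes), and the median log2 fold change was 0.13. ANAPC1, the large scaffold subunit, fell 1.65-fold, at 156, 161 and 156 CPM in the knockout libraries, against 249 and 271 CPM in the wild-type libraries (-0.72 ± 0.07, edgeR adjusted p = 4.20e-05). CDC16, one of the subunits with tetratricopeptide repeats, was at 82.5, 83.5 and 84.8 CPM in the knockout libraries, against 103 and 109.8 CPM in the wild-type libraries (-0.35 ± 0.08, adjusted p = 0.00443; 0.0694 without wild-type replicate 2). ANAPC7 and CDC27, also of the repeat family, rose instead. ANAPC7 was at 161, 156 and 156 CPM in the knockout libraries, against 102 and 102 CPM in the wild-type libraries (0.63 ± 0.08, adjusted p = 0.000123). CDC27, which binds the coactivators, was at 143, 123 and 129.9 CPM in the knockout libraries, against 91.1 and 93.4 CPM in the wild-type libraries (0.52 ± 0.09, adjusted p = 0.00114). The coactivators CDC20 (0.15 ± 0.10, adjusted p = 0.203) and FZR1 (0.26 ± 0.16, 0.172) and the subunit CDC23 (0.13 ± 0.09, 0.260) did not pass. Neither did ANAPC5 (-0.063 ± 0.08, adjusted p = 0.506) or UBE2S, the enzyme that extends ubiquitin chains (-0.16 ± 0.11, 0.262). Without knockout replicate 2, ANAPC5 and UBE2S passed as falls (adjusted p = 0.0348 and 2.94e-08), and they also passed with library totals (0.0129 and 0.0223). CDC16 and CDC27 were no longer called with near-identical libraries summed (adjusted p = 0.214 and 0.0631). GENCODE 29 names pseudogenes after several mitosis genes, 4 after UBE2C, 3 after CDC27, 2 each after UBE2S and SGO1 and 1 each after ANAPC1, CDC20, BUB1, BUB3 and CCNB2, so these counts are uncertain where reads could be shared. The same limit holds for ANAPC7, BUB1B, PRC1 and NUSAP1, where exons of another gene on the same strand lie over coding exons. Antisense exons lie over coding exons of CDC27, PLK1, PRC1 and HMMR.

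Genes of chromatid cohesion and separation included the largest fall. TOP2A, the topoisomerase that untangles sister chromatids, took the most counts of the mitosis genes, with 1254, 1103 and 1219.9 CPM in the knockout libraries, against 2003 and 2077 CPM in the wild-type libraries. It fell 1.71-fold (-0.77 ± 0.07, edgeR adjusted p = 1.72e-05). ESPL1, which encodes separase, the protease that cuts cohesin, moved up 1.98-fold, at 78.4, 99.1 and 76.8 CPM in the knockout libraries, against 42.8 and 42.6 CPM in the wild-type libraries (0.99 ± 0.13, adjusted p = 0.000222). Shugoshin (SGO1), which shields cohesin at centromeres until anaphase, was at 35.4, 28.1 and 33.6 CPM in the knockout libraries, against 43.6 and 45.0 CPM in the wild-type libraries (-0.45 ± 0.12, adjusted p = 0.0109). SGO1 was no longer called without wild-type replicate 1 (adjusted p = 0.0659) or 2 (0.0857), or with near-identical libraries summed (0.0782). PTTG1, which encodes securin, the inhibitor of separase, was at 269, 249 and 256 CPM in the knockout libraries, against 228 and 237 CPM in the wild-type libraries. Its libraries did not overlap, yet it did not pass (0.15 ± 0.07, adjusted p = 0.107), and it passed without knockout replicate 2 (adjusted p = 0.000389).

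ANLN rose 3.89-fold, the largest change of the 42 genes. It encodes anillin, which ties the contractile ring of actin and myosin to septins and the membrane at the cleavage furrow (transcript ENST00000265748, plus strand, chr7:36389806-36453791 in GRCh38, 24 exons). Its levels were 275, 222 and 261 CPM in the knockout libraries, against 65.0 and 65.0 CPM in the wild-type libraries, or 253 ± 27.1 CPM in the knockout and 65.0 ± 0.0416 CPM in wild type (SD, n = 3 and n = 2). The log2 fold change was 1.96 ± 0.11 (edgeR adjusted p = 1.58e-06), and it lay between 1.74 and 2.04 over 13 alternative settings. Raw counts were 7498, 3591 and 7695 in the knockout libraries and 377 and 348 in the wild-type libraries. An exon of KIAA0895 lies over ANLN coding exons on the opposite strand in GENCODE 29, and the use of strand in counting is not given. For KIAA0895 itself the levels were 14.2, 14.4 and 15.0 CPM in the knockout libraries, against 14.1 and 11.9 CPM in the wild-type libraries (not called; 0.15 ± 0.14, adjusted p = 0.365). PRC1, which bundles microtubules of the central spindle, was at 364, 302 and 365 CPM in the knockout libraries, against 250.3 and 269 CPM in the wild-type libraries (0.40 ± 0.10, adjusted p = 0.00597). PRC1 was no longer called without wild-type replicate 1 (adjusted p = 0.0896) and with library totals (0.109) or near-identical libraries summed (0.141). ECT2, the exchange factor that activates RhoA at the furrow, was at 239, 191 and 235 CPM in the knockout libraries, against 204 and 195 CPM in the wild-type libraries, with knockout replicate 2 below both wild-type libraries. ECT2 did not pass (0.15 ± 0.10, adjusted p = 0.244), but did without knockout replicate 2 (adjusted p = 2.59e-06).

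Of the 4 genes of spindle microtubules, HMMR alone passed, as a rise (30.2% of all genes rose and 29.8% fell). HMMR, a hyaluronan-binding protein that also acts at spindle poles, was at 244, 167 and 240.4 CPM in the knockout libraries, against 146 and 159.8 CPM in the wild-type libraries (0.51 ± 0.16, edgeR adjusted p = 0.0195). HMMR was no longer called without wild-type replicate 1 (adjusted p = 0.159) or 2 (0.0840) and with library totals (0.126) or near-identical libraries summed (0.100). TPX2, which activates Aurora A and starts microtubule growth near chromosomes, was at 526, 417 and 527 CPM in the knockout libraries, against 408 and 419.5 CPM in the wild-type libraries. NUSAP1, which bundles microtubules around chromatin, was at 399.8, 352 and 405 CPM in the knockout libraries, against 335 and 341 CPM in the wild-type libraries. ASPM, which focuses spindle poles, was at 201, 169 and 200.4 CPM in the knockout libraries, against 179.9 and 182 CPM in the wild-type libraries. In all 3 genes knockout replicates 1 and 3 lay above wild type, while replicate 2 lay between the wild-type libraries in TPX2, just above them in NUSAP1 and below them in ASPM. Adjusted p values were 0.0701, 0.0665 and 0.550 for TPX2, NUSAP1 and ASPM over all libraries, and 1.58e-13, 4.19e-08 and 0.00457 without knockout replicate 2. TPX2 and NUSAP1 also passed with no filter on low counts (edgeR adjusted p = 0.0245 and 0.0300).

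Ratios of counts between partners of a complex do not depend on the scaling between libraries, and several separated the genotypes. Separation was common for single genes too. All knockout libraries lay above all wild-type libraries in 38.5% of all genes and below them in 37.9%. The share among ratios of other gene pairs was not counted. The ratios given here were chosen after the values were seen and carry no test. NUF2 counts per NDC80 count were 0.751, 0.798 and 0.707 in the knockout libraries, against 1.48 and 1.43 in the wild-type libraries. SPC24 per NDC80 was 0.282, 0.448 and 0.307 in the knockout libraries, against 0.212 and 0.237 in the wild-type libraries. Relative to NDC80, NUF2 was thus lower and SPC24 higher in every knockout library. In the passenger complex AURKB per INCENP was 0.980, 0.979 and 0.964 in the knockout libraries, against 1.96 and 1.82 in the wild-type libraries. BIRC5 per INCENP was 0.847, 0.907 and 0.814 in the knockout libraries, against 1.53 and 1.60 in the wild-type libraries. CDCA8 per INCENP, by contrast, overlapped between genotypes, at 0.693, 0.554 and 0.628 in the knockout libraries, against 0.635 and 0.613 in the wild-type libraries. Cyclin B2 per cyclin B1 differed little, at 0.393, 0.432 and 0.409 in the knockout libraries, against 0.389 and 0.377 in the wild-type libraries. Each knockout value still lay above both wild-type values. In the APC/C the widest gap was ANAPC1 per ANAPC7, at 0.969, 1.03 and 0.999 in the knockout libraries, against 2.45 and 2.65 in the wild-type libraries. ANAPC5, CDC16 and CDC23 per ANAPC7 were also lower in every knockout library, with means of 1.17, 0.531 and 0.873 in the knockout and 1.89, 1.05 and 1.23 in wild type. ANAPC7 itself rose (0.63 ± 0.08), which lowers every ratio taken over it. On their own ANAPC5 (-0.063 ± 0.08) and CDC23 (0.13 ± 0.09) did not pass with TMM scaling, so their lower ratios do not by themselves show falls of these subunits. With library totals ANAPC5 passed as a fall (-0.28, edgeR adjusted p = 0.0129) and CDC23 did not pass (-0.089, 0.439). CDC27 per ANAPC7 was 0.891, 0.790 and 0.833 in the knockout libraries, against 0.895 and 0.914 in the wild-type libraries, the closest of the 5 subunit ratios.

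**Figure D4:**
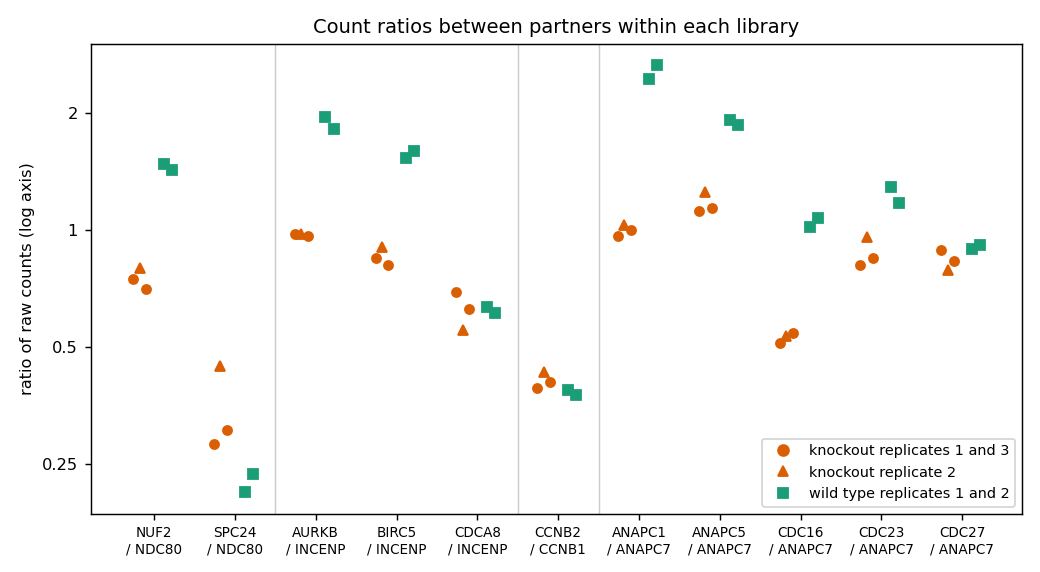
Ratios of raw counts between partners in each library, on a log axis, for the NDC80 complex, the passenger complex, the B cyclins and the APC/C (separated by grey lines). Orange symbols are the 3 knockout libraries (replicate 2 as a triangle) and green squares the 2 wild-type libraries; AURKB over INCENP is near 0.97 in the knockout and near 1.89 in wild type, whereas CDCA8 over INCENP overlaps.

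Knockout replicate 2 stood apart from replicates 1 and 3, and most mitosis genes were lower in it. It lay below both of the others in 27 of the 42 genes and above both in 12, against 4820 and 4927 of all 11205 genes. The median difference on the log2 scale, replicate 2 minus the mean of replicates 1 and 3, was -0.15 for the mitosis genes and 0.0041 for all genes. The difference followed the GC content of the coding sequence, which had a median of 45.1% in the mitosis genes and 52.0% in all genes. Across the 42 genes Pearson's r was 0.78 and Spearman's rho 0.73, and across the tested genes matched to a coding sequence they were 0.58 and 0.67. These are descriptions across genes that share the same 3 libraries, and genes are not independent replicates. CENPE, with a GC content of 35.3%, was at -0.64 and FZR1, with 62.9%, at 0.43. Without replicate 2 there were 27 rises and 11 falls among the mitosis genes, and 37.3% and 35.9% of all genes rose and fell.

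**Figure D5:**
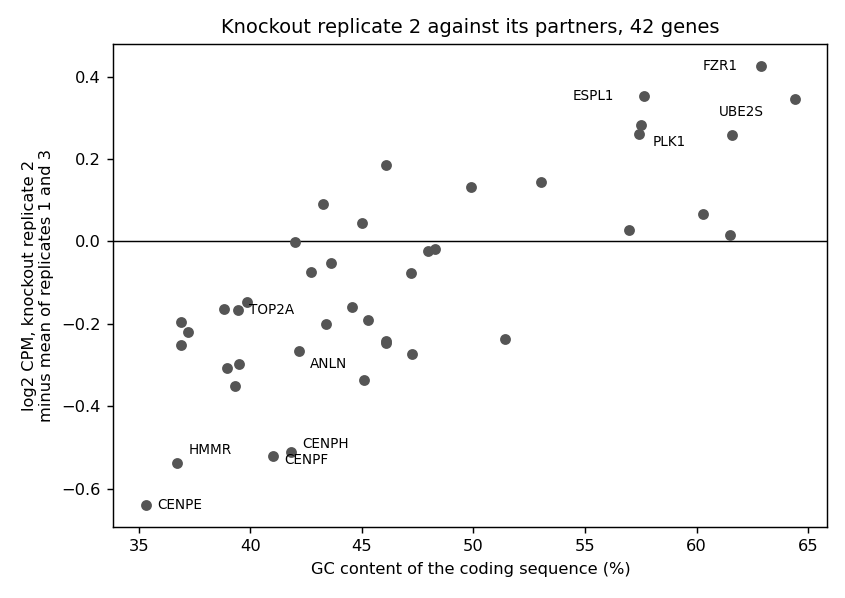
Difference in log2 CPM between knockout replicate 2 and the mean of knockout replicates 1 and 3, against the GC content (%) of the coding sequence, with 1 point for each of the 42 tested mitosis genes. Points below 0 are lower in replicate 2; CENPE sits lowest at -0.64 and FZR1 highest at 0.43.

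Per kilobase of coding sequence, mitosis genes spanned a wide range of footprint levels. Cyclin B1 was the highest in the knockout at 701 CPM per kb, against 508 CPM per kb in wild type. CDK1 followed at 556 CPM per kb in the knockout and 406 in wild type, and MAD2L1 at 527 in the knockout and 255 in wild type. UBE2S, the highest in wild type by a margin of under 1 CPM per kb over cyclin B1, had 456 CPM per kb in the knockout and 508 in wild type. ESPL1, the lowest of the tested genes, had 13.3 CPM per kb in the knockout and 6.71 in wild type. The 43 genes together took 1.12%, 1.03% and 1.11% of all counts in the knockout libraries, against 1.15% and 1.16% in the wild-type libraries. After TMM scaling the order was reversed, with summed levels of 11972, 10858 and 11876 CPM in the knockout libraries, against 10473 and 10606 CPM in the wild-type libraries.

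Other genes of mitosis also held large single changes in both directions. Over 8 lists with 98 genes (other subunits and regulators of the same machines), 88 were tested, 36 (40.9%) rose and 16 (18.2%) fell (30.2% and 29.8% of all genes), with a median log2 fold change of 0.16. With library totals 24 of them rose and 32 fell (21.3% and 40.7% of all genes). Fewer of them were called without wild-type replicate 1 or with near-identical libraries summed, and fewer of all genes were called there too. FBXO5, which encodes EMI1, an inhibitor of the APC/C, stood at 117, 81.3 and 111 CPM in the knockout libraries, against 20.4 and 20.4 CPM in the wild-type libraries (2.34 ± 0.18, edgeR adjusted p = 8.06e-06). In the same list of 8 tested genes 2 rose and 2 fell; the falls were the APC/C subunits ANAPC16 (-1.09 ± 0.11) and ANAPC11, at 45.4 ± 6.36 CPM in the knockout and 90.3 ± 8.39 CPM in wild type (SD, n = 3 and n = 2). Of 18 other kinetochore genes 9 rose and 1 fell, with SKA3 (1.24 ± 0.15), CENPW (0.96 ± 0.12) and CENPL (0.91 ± 0.16) among the rises. Of 6 other checkpoint genes 4 rose, among them MAD2L1BP (0.82 ± 0.10) and TRIP13 (0.61 ± 0.08), which take MAD2 out of its active form. KNTC1, a subunit of the RZZ complex that brings MAD1 and MAD2 to kinetochores, fell, at 129.6, 118 and 125 CPM in the knockout libraries, against 263 and 264 CPM in the wild-type libraries (-1.08 ± 0.08, adjusted p = 4.80e-06).

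Beside the 30.2% of all genes that rose and the 29.8% that fell, 3 of 17 cohesin and condensin genes rose (17.6%) and 6 fell (35.3%, near that of all genes), with a median of -0.15. The cohesin subunits SMC1A (-0.79 ± 0.06) and STAG1 (-0.59 ± 0.11) fell, and the condensin subunit NCAPG (0.84 ± 0.09) rose. Of 7 regulators of mitotic entry 5 rose (71.4%), among them CDC25A (0.54 ± 0.08) and MASTL (1.00 ± 0.16), the kinase that restrains the phosphatase PP2A in mitosis, and CKS1B, a small CDK-binding protein, fell (-0.89 ± 0.07). Of 15 spindle pole genes 8 rose (53.3%) and 2 fell (13.3%), with NUMA1 (0.58 ± 0.07), TUBG1 (0.88 ± 0.12) and CKAP2 (0.88 ± 0.12) among the rises. Of 6 other cytokinesis genes 3 rose (50%) and 2 fell (33.3%, near that of all genes), with CEP55 (1.30 ± 0.16) and RHOA (0.48 ± 0.08) higher and PDCD6IP (-0.40 ± 0.07) lower. Of 11 transcription factors of the late cell cycle 2 rose (18.2%) and 1 fell (9.09%). FOXM1 (0.41 ± 0.13, edgeR adjusted p = 0.0242) and LIN9 (0.32 ± 0.12, adjusted p = 0.0411) rose, and RBL2, the p130 repressor, fell (-0.84 ± 0.10, adjusted p = 9.60e-05). With upper-quartile scaling neither FOXM1 nor LIN9 was called (adjusted p = 0.0592 and 0.0738). FOXM1 was no longer called without wild-type replicate 1 (adjusted p = 0.272), nor LIN9 without wild-type replicate 1 (0.0931) or 2 (0.269) and without knockout replicate 1 (0.119) or 3 (0.110). With library totals neither was called (adjusted p = 0.251 for FOXM1 and 0.450 for LIN9), and with near-identical libraries summed the adjusted p was 0.123 for FOXM1, 0.338 for LIN9 and 0.0891 for PDCD6IP.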

How the data were processed

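Per the labels' protocols, lysates made with cycloheximide were treated with RNase I, the monosome fraction was taken from a sucrose gradient, and footprints of 28 to 32 nt were ligated to adapters with 4 random bases; the labels call the molecule polyA RNA. The authors deposited raw counts, 1 row for each transcript with its gene symbol. Bowtie and hg38 are named, per the submitters' processing notes; counting tool, annotation, strand, duplicate removal and treatment of shared reads: all not given in the sources used here, so reads of close copies or overlapping genes may be split. The column names stand 1 place off their values, and each column was matched to its sample by name after correcting for this.

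Counts were tested in R 4.3.3 with edgeR 4.0.16 (TMM, filterByExpr with a minimum count of 10, quasi-likelihood test, genotype as the only term, Benjamini-Hochberg adjustment over 11205 genes, threshold 0.05). CPM are TMM-scaled, and SE is the log2 fold change divided by the square root of F. Higher and lower are relative to other genes; a shift shared by all would not be seen. Depth sets the precision: 1 count was at most 0.187 CPM. Limits cover counting error only. Transcripts were placed with GENCODE 29 (13533 of 13638 rows), and promoters are RefSeq's (GRCh38.p14). Alternatives were other scalings, other filters, DESeq2 1.42.0, each library left out, a replicate block, a spline fit, and summed near-identical libraries. Values in every library are given for up to 4 genes a role with the smallest adjusted p and for every gene that fell, and up to 3 called genes a list elsewhere; PLK1 and CENPE were added after their values were seen. The genes and lists were chosen with earlier results of these data known. A search for degradation motifs in proteins was planned and not run.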

Additional observations from a re-analysis of the deposited data

How the results depend on the processing

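Of the 28 mitosis genes called, 12 kept their call in all 13 alternatives run: 9 higher (ANLN, SPC24, MAD2L1, ESPL1, BUB1, ANAPC7, CCNA2, CCNB2 and CCNB1) and 3 lower (TOP2A, ANAPC1 and AURKB). None of the 28 turned direction in these 13, which leave out the spline fit. Residuals from that fit were below 0 for 2 called rises, CDK1 (-0.096) and TTK (-0.0043). For CCNB1 the residual was 0.064, and the residuals of all called falls stayed below 0. With library totals 12 mitosis genes rose and 11 fell, and their median log2 fold change was 0.026. Of all genes 21.3% rose and 40.7% fell in that setting, with a median of -0.20. In the other mitosis lists 24 genes rose and 32 fell. TACC3, of those lists, turned to -0.0093 there. Residuals from splines of coding length, GC content and level had a median of 0.10. Summing near-identical libraries, an alternative chosen after seeing the data that leaves 2 knockout libraries and 1 wild-type library, gave 9 rises and 3 falls among the mitosis genes and 21 and 8 in the other lists; fewer samples enter that fit. Leaving out each library in turn gave 12 to 27 rises, 5 to 11 falls and 23 to 49 rises and 12 to 23 falls in the other lists; a lone wild-type library is then assumed to vary like the rest. Labels share replicate numbers, but same-numbered libraries did not deviate together (correlations of -0.09 and -0.08). These values are not separate checks, since the 2 wild-type libraries deviate from their mean as mirror images. With the replicate block 18 mitosis genes rose and 8 fell (27.4% and 27% of all genes), and the BUB3 and TTK calls were lost. DESeq2 gave 19 rises and 8 falls (23% and 23.8% of all genes). Wild-type depth limits low genes. UBE2C, with at most 4 counts in any library of either genotype, could not be tested.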
